A study of Mus musculus with 2 samples.

Results

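The genes described here encode the proteins of the cytosolic ribosome. They were taken from the count table by name and annotation, as protein-coding genes whose symbol begins with Rpl or Rps and goes on as a ribosomal protein symbol does, with Rplp0, Rplp1, Rplp2 and Rpsa added and the Rps6k kinases left out. This gave 84 genes of the 54751 in the table, 52 of the large subunit (Rpl and Rplp symbols) and 32 of the small subunit (Rps and Rpsa). No measured value entered this rule, though earlier results of these data were known when it was set. They lie on 19 chromosomes, with 14 of them on chromosome 7 and 4 on the X.

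RNA-seq had been carried out on wild-type mouse myeloid-derived suppressor cells cultured from bone marrow. These cells, known as MDSCs, are immature myeloid cells that restrain T cells. One culture had received vehicle and the other mrWNT2, and the labels put treatment at day 0 and day 3 and collection at day 6. WNT2 is one of the secreted WNT ligands; the labels give no dose. Each group was 1 library, of 13474453 counts for control and 12621110 for mrWNT2, so no test between the groups was possible, and every interval below covers counting error only, not the spread between cultures.

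The ribosome reads messenger RNA on its small subunit and joins amino acids on its large subunit. Each ribosome holds most of its proteins in a single copy, and cells tend to make them in matched amounts. Many of their messengers begin with a C followed by a run of pyrimidines, the 5′ terminal oligopyrimidine (TOP) motif, through which growth signals such as mTOR control their translation. In the bone marrow, loss of 1 copy of certain of these genes causes Diamond-Blackfan anaemia.

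The start sites of a few of these genes are shown because the TOP run is the sequence feature for which the family is known. RefSeq's table of start sites (build GRCm38.p6) held 64 of the 84 genes. Each window runs 5′ to 3′ on the gene's own strand from 10 bases before the start to 20 bases from it onwards. Capitals mark the C nearest the start that has at least 4 further C or T bases after it, and those bases. Pyrimidines directly before that C are left in small letters. The first group has the marked C exactly at the RefSeq start (Rps6, chr4:86857348-86857377, minus strand; Rps18, chr17:33955646-33955675, minus; Rpl15, chr14:18270967-18270996, minus; Rpl35, chr2:39005112-39005141, minus; Rplp2, chr7:141447641-141447670, plus; Rps27, chr3:90213629-90213658, minus).
Rps6: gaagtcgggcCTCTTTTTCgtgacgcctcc
Rps18: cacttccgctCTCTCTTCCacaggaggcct
Rpl15: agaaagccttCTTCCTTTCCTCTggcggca
Rpl35: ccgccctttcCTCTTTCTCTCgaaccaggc
Rplp2: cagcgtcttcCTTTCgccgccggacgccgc
Rps27: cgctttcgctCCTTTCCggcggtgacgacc

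In Rpl7a (chr2:26910797-26910826, plus) and Rpl22l1 (chr3:28805498-28805527, plus) the marked C lies close to the annotated start but not on it. All bases shown before it in Rpl7a are C or T too, and T bases directly precede it in Rpl22l1.
Rpl7a: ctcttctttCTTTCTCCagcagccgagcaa
Rpl22l1: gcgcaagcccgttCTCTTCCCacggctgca

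In Rpl26 (chr11:68901556-68901585, plus), Rpl36a (chrX:134585644-134585673, plus) and Rps28 (chr17:33824543-33824572, minus) no such run begins within 5 bases of the annotated start.
Rpl26: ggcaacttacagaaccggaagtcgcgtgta
Rpl36a: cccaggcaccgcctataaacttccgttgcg
Rps28: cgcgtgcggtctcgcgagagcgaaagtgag

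Among the 64 genes, 29 (45.3%) had a C followed by at least 4 further C or T bases beginning within 5 bases of a RefSeq start, against 21.2% of 27025 genes in the table. Such a C lay exactly at the start in 13 (20.3%), against 3.01% of all genes. Bases before the C were not considered, so a longer run may begin further upstream. The large subunit contributed 17 of 40 genes with a run and the small subunit 12 of 24. Read on the other strand at the same positions, the same pattern was found in 9 of the 64 (14.1%) and in 24.4% of all genes. The letters CTTTC, which can lie inside such a run, began within 5 bases of the start in 10 genes (15.6%, against 540 of the 27025 genes). Over the whole window of 300 bases, searched on both strands, CCGGAAG was present in 26 (40.6%, against 9.93%), AAGATGG in 10 (15.6%, against 7.28%), GGGCGG in 40 (62.5%, against 38.2%) and the palindrome CACGTG in 6 (9.38%, against 8.09%). Such matches describe the letters of these windows and are not evidence of a bound factor.

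Levels are in CPM, each gene's count relative to the total of its library after TMM adjustment. A gene was called measured when its mean over the 2 libraries was at least 1 CPM, and 80 of the 84 genes were, 48 of the large and 32 of the small subunit. The remaining 4 were Rpl36al with 11 counts in control and 4 in mrWNT2, Rpl24 with 3 and 4, Rpl39l with 6 and 15, and Rpl10l with 0 in both. At a count of 0 the level could still be 0.224 CPM (control) or 0.236 CPM (mrWNT2).

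Ribosomal protein messengers were slightly more abundant in the mrWNT2 library than in control, and most genes of the family were shifted a little in that direction. The median log2 ratio of mrWNT2 over control was 0.19 over the 80 measured genes (quartiles 0.13 and 0.25), while the median of all 12856 genes at that minimum was 0.02. Of the 80, 56 were at least 1.1-fold higher in mrWNT2, where 33.5% of all genes were, and 2 were at least 1.1-fold lower, where 29.6% of all genes were. Those 2 were Rpl17 and Rpl3l. None was at least 1.5-fold higher (7.62% of all genes) and 1, Rpl3l, was at least 1.5-fold lower (7.02% of all genes). The 95% counting interval lay wholly above a ratio of 1 for 66 of the 80 (21% of all genes) and wholly below it for 1, Rpl17 (18.8% of all genes). For 56 of the 80 the log2 ratio was within 0.1 of the family's median. The quartiles of all genes were -0.19 and 0.22. Only for 43 of the 80 did the 95% interval include the family's median, so the genes did not all share 1 shift within counting error.

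These genes are abundant, so they were also set beside other abundant genes. At a minimum of 100 CPM, 47 of 66 ribosomal protein genes were at least 1.1-fold higher, against 23.1% of all 2077 genes at that level, whose median log2 ratio was -0.03. None of the 66 was at least 1.1-fold lower, against 30.4%, and none was 1.5-fold higher (3.71%) or lower (2.31%). The counting interval lay above a ratio of 1 for 58 of the 66, against 30.4%, and below it for none, against 39.6%. The ratio itself was above 1 for 62 of the 66, against 44.5%. Within the family the ratio showed little rank correlation with level, length or base composition. Over 78 genes, Spearman's rho of the log2 ratio was 0.01 with mean CPM, 0.12 with transcript length, -0.02 with GC content and 0.02 with the share of the transcript found in other genes; all points share the same 2 libraries. The median log2 ratio was 0.20 for the 29 measured genes with a TOP run near the start and 0.17 for the 31 without one. By the stricter features the medians were close to equal or the other way round. They were 0.19 for 13 genes with the C of such a run exactly at the start and 0.20 for the other 47. With CTTTC near the start they were 0.16 for 10 genes and 0.20 for the other 50.

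**Figure D1:**
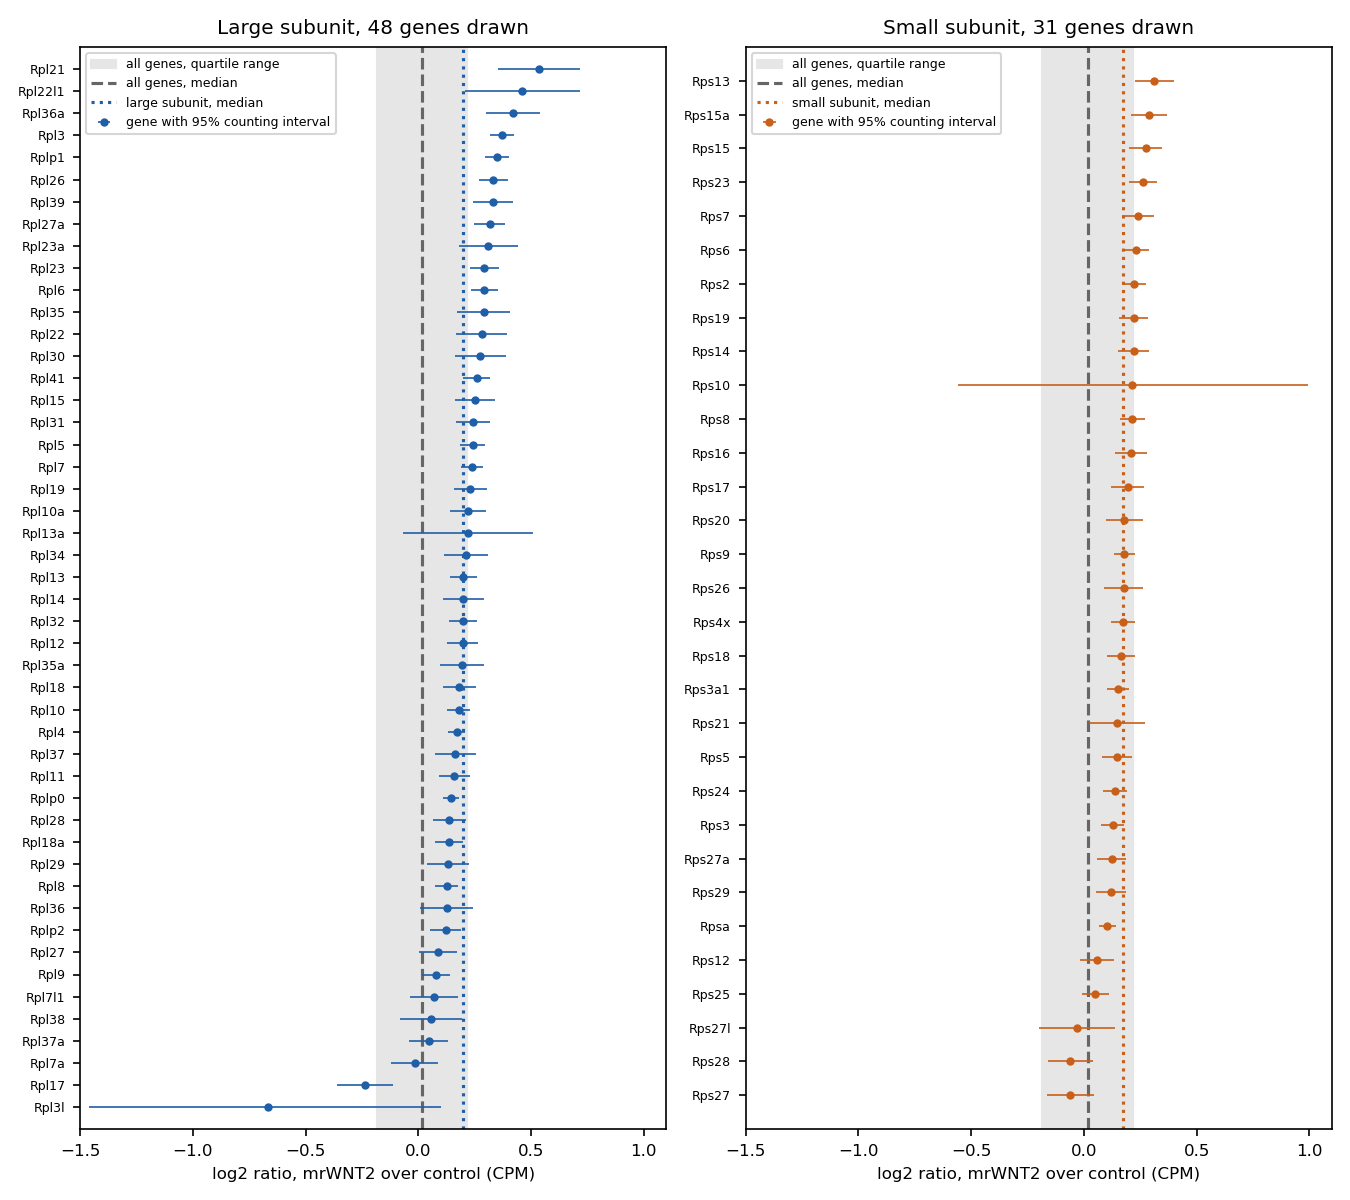
Log2 ratio of mrWNT2 over control for each measured ribosomal protein gene (points) with its 95% counting interval (bars), 48 large subunit genes on the left and 31 of the 32 small subunit genes on the right. The dotted lines are the subunit medians (0.20 and 0.17), the dashed line is the median of all genes (0.02) and the grey band runs from the lower to the upper quartile of all genes; Rpl17 and Rpl3l are the lowest points and Rpl21 the highest.

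Counts of the 84 genes together made up 1.93% of the control library (exact Clopper-Pearson 95% interval 1.92 to 1.93) and 2.23% of the mrWNT2 library (2.22 to 2.24). Summed over the 80 measured genes, the level was 19418 CPM in control and 22099 CPM in mrWNT2, a ratio of 1.14 (1.13 to 1.14). In bulk RNA, more cells of a type that is rich in these messengers and more of them per cell cannot be told apart.

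The large and small subunits had nearly the same median ratio. The median log2 ratio was 0.20 for the large subunit (quartiles 0.13 and 0.28) and 0.17 for the small subunit (0.12 and 0.22), a difference of 0.03. The genes at least 1.1-fold higher were 34 of 48 large subunit genes and 22 of 32 small subunit genes (33.5% of all genes). The ratio was above 1 in 45 of 48 and 28 of 32 (52.3% of all genes). The summed level of the large subunit was 10673 CPM in control and 12308 CPM in mrWNT2, a ratio of 1.15 (1.14 to 1.16). That of the small subunit was 8745 and 9791 CPM, a ratio of 1.12 (1.11 to 1.13). The counting intervals of the 2 sums do not overlap, but the spread between cultures is unknown. The 8 highest ratios among the 80 genes, a count taken after the values were seen, were all of the large subunit. The highest small subunit gene, Rps13, was at 147 CPM in control and 183 CPM in mrWNT2, 1.24-fold.

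**Figure D2:**
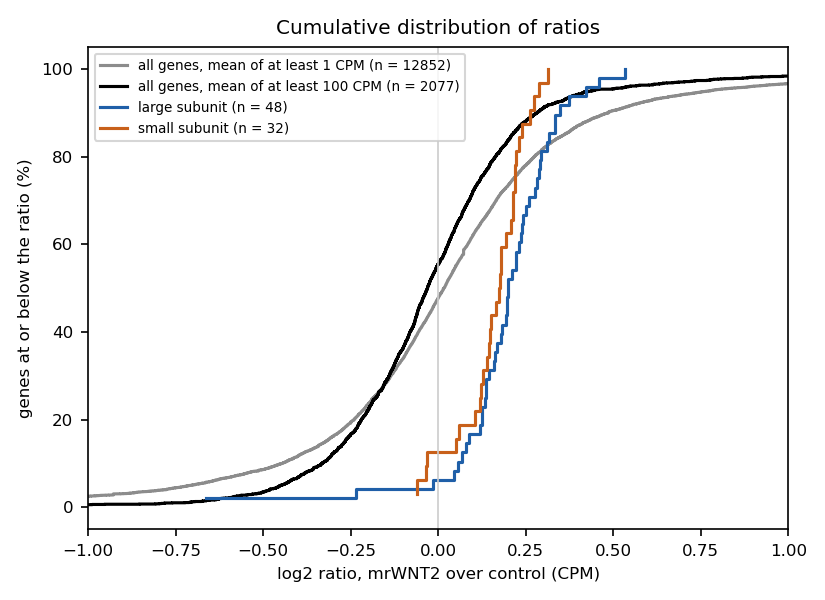
Cumulative share of genes (percent) at or below each log2 ratio of mrWNT2 over control, for large (48) and small (32) subunit genes and for all genes with at least 1 or at least 100 CPM that had counts in both libraries. Both subunit curves lie to the right of both curves of all genes over most of their range, with medians of 0.20 and 0.17 against 0.02 and -0.03, and they are steeper.

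The stalk of the large subunit, which recruits and activates the elongation factors, is made of Rplp0, Rplp1 and Rplp2, with Rpl12 at its base. Rplp1 was at 388 CPM in control and 493 CPM in mrWNT2, 1.27-fold (log2 0.35, interval 0.29 to 0.40). Rplp2, its partner in the stalk's dimers, was at 240 and 261 CPM (log2 0.12, interval 0.05 to 0.19). The 2 intervals do not overlap, so these partners, both higher in mrWNT2, differed by unequal amounts in this pair of libraries. Rplp0, the scaffold of the stalk, was at 834 and 922 CPM (log2 0.14). Rpl12 was at 240 and 275 CPM (log2 0.20).

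Rpl5 and Rpl11 carry the 5S ribosomal RNA and, when not in ribosomes, bind the p53 regulator Mdm2. Rpl5 was at 350 CPM in control and 414 CPM in mrWNT2 (log2 0.24), and Rpl11 at 250 and 280 CPM (log2 0.16). Their intervals, 0.18 to 0.30 and 0.09 to 0.23, overlap. Mdm2 itself had a log2 ratio of -0.05 and Trp53, the gene of p53, 0.01.

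Rpl3 and Rpl10 reach towards the peptidyl transferase centre, where the peptide bond forms, Rpl8 lies near it, and Rpl10a forms the mobile L1 stalk where spent transfer RNA leaves. Rpl3 was at 384 CPM in control and 497 CPM in mrWNT2, 1.30-fold (log2 0.37, interval 0.32 to 0.43), the highest of the 4. Rpl8 was at 443 and 483 CPM (log2 0.13, interval 0.07 to 0.18), the lowest of them, and its interval does not overlap that of Rpl3. Rpl10 was at 436 and 494 CPM (log2 0.18) and Rpl10a at 187 and 218 CPM (log2 0.22).

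Proteins at and near the exit of the tunnel through which the new chain leaves had a median log2 ratio of 0.28 over 9 genes (Rpl4, Rpl17, Rpl19, Rpl22, Rpl23a, Rpl26, Rpl31, Rpl35 and Rpl39). At least 1.1-fold higher were 8 of them, beside 56 of the 80 in the family and 33.5% of all genes. Rpl17 was at least 1.1-fold lower (29.6% of all genes). Rpl26 was at 261 CPM in control and 328 CPM in mrWNT2, 1.26-fold (log2 0.33). Rpl39, one of the shortest ribosomal proteins, was at 141 and 178 CPM (log2 0.33).

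Rpl21 and Rpl36a, both of the large subunit, were near the top of the order. Rpl21 (chr5:146832890-146837032) was at 32.0 CPM in control and 46.3 CPM in mrWNT2, 1.45-fold (log2 0.53, interval 0.35 to 0.72). Rpl36a (chrX:134585654-134588062) was at 76.2 and 102 CPM, 1.34-fold (log2 0.42, interval 0.30 to 0.54). Both intervals lie above the family's median of 0.19.

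In the small subunit, the 14 proteins of the head, the lobe that swings as the messenger advances, had a median log2 ratio of 0.16, with 8 at least 1.1-fold higher. Rps15 was at 208 CPM in control and 251 CPM in mrWNT2 (log2 0.27, interval 0.20 to 0.35). Rps28 was at 127 and 122 CPM (log2 -0.06, interval -0.16 to 0.04). The 7 proteins of the platform and of the path of the messenger had a median of 0.18, and 6 were at least 1.1-fold higher. The share at least 1.1-fold higher was 70% in the whole family and 33.5% among all genes. Rps23, at the decoding centre, was at 287 and 344 CPM (log2 0.26), and Rpsa, the laminin receptor protein, at 769 and 827 CPM (log2 0.10).

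The low end of the order held genes of both subunits. Rps27, at 118 CPM in control and 113 CPM in mrWNT2, had a log2 ratio of -0.06. Rps27l was at 44.9 and 43.9 CPM (log2 -0.03) and Rpl7a at 118 and 117 CPM (log2 -0.02). The intervals of these 3, like that of Rps28, include a ratio of 1. Rpl7a moved to the other side of 1 when total counts were used for scaling, and Rpl37a and Rps25 did with upper-quartile factors.

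Genes mutated in Diamond-Blackfan anaemia had the same median as the whole family. All 18 on the list were measured, with a median of 0.19. Of them, 14 were at least 1.1-fold higher (33.5% of all genes) and none 1.1-fold lower (29.6% of all genes). Rps19, the most often mutated, was at 283 CPM in control and 329 CPM in mrWNT2 (log2 0.22).

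Mammals carry a few paralogs of core ribosomal proteins, made in certain tissues or at low levels. Rpl22l1, the paralog of Rpl22, was at 17.0 CPM in control and 23.4 CPM in mrWNT2, 1.38-fold (log2 0.46, interval 0.21 to 0.72). Rpl22 was at 89.7 and 109 CPM (log2 0.28, interval 0.17 to 0.39), so the pair's intervals overlap. Rps27l, a p53 target, had a ratio close to that of Rps27 (log2 -0.03 and -0.06). Rpl7l1 was at 108 and 113 CPM (log2 0.07, interval -0.04 to 0.17) while Rpl7 was at 464 and 547 CPM (log2 0.24, interval 0.19 to 0.29), and these intervals do not overlap.

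Other paralogs were near the limit of detection. Rpl3l, the form of Rpl3 made in heart and skeletal muscle, had 40 counts in control and 24 in mrWNT2 (log2 -0.66, interval -1.46 to 0.10). Rpl39l, best known from the testis, had 6 and 15 counts and Rpl36al 11 and 4, and both of their intervals include a ratio of 1. Rpl10l, the autosomal copy of the X-linked Rpl10 that acts in male germ cells, had none. The parent genes Rpl3, Rpl39, Rpl36a and Rpl10 were all at least 1.1-fold higher in mrWNT2.

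Ribosomal protein genes have many processed pseudogenes, copies of the messenger inserted elsewhere in the genome, and reads can be shared with them. The median gene had 54.5% of its 50-base transcript windows also in the transcripts of other genes, and 50 of the 84 had over 50%. Named pseudogenes with counts existed for 48 of the 84 genes. These 150 pseudogenes held 8672 counts in control and 10014 in mrWNT2, a ratio of 1.21 (1.18 to 1.25). The sources used here do not give how reads matching several places were counted.

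Rpl17 was the gene for which this mattered most. Rpl17 alone was at 88.6 CPM in control and 75.3 CPM in mrWNT2 (log2 -0.23, interval -0.36 to -0.11). Its named pseudogenes together had 927 and 1468 counts. For Rpl17-ps10 on chromosome 7 (chr7:72648757-72649311), counts were 597 and 1050, a 1.85-fold higher level in mrWNT2 (1.67 to 2.05). With its named pseudogenes added, the log2 ratio of Rpl17 was 0.27 (1.21-fold, 1.14 to 1.28), on the other side of 1 from the gene alone. Rpl21, with 738 and 846 pseudogene counts against 428 and 589 of its own, went from 0.53 to 0.37. Rpl7a went from -0.02 to 0.06.

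**Figure D3:**
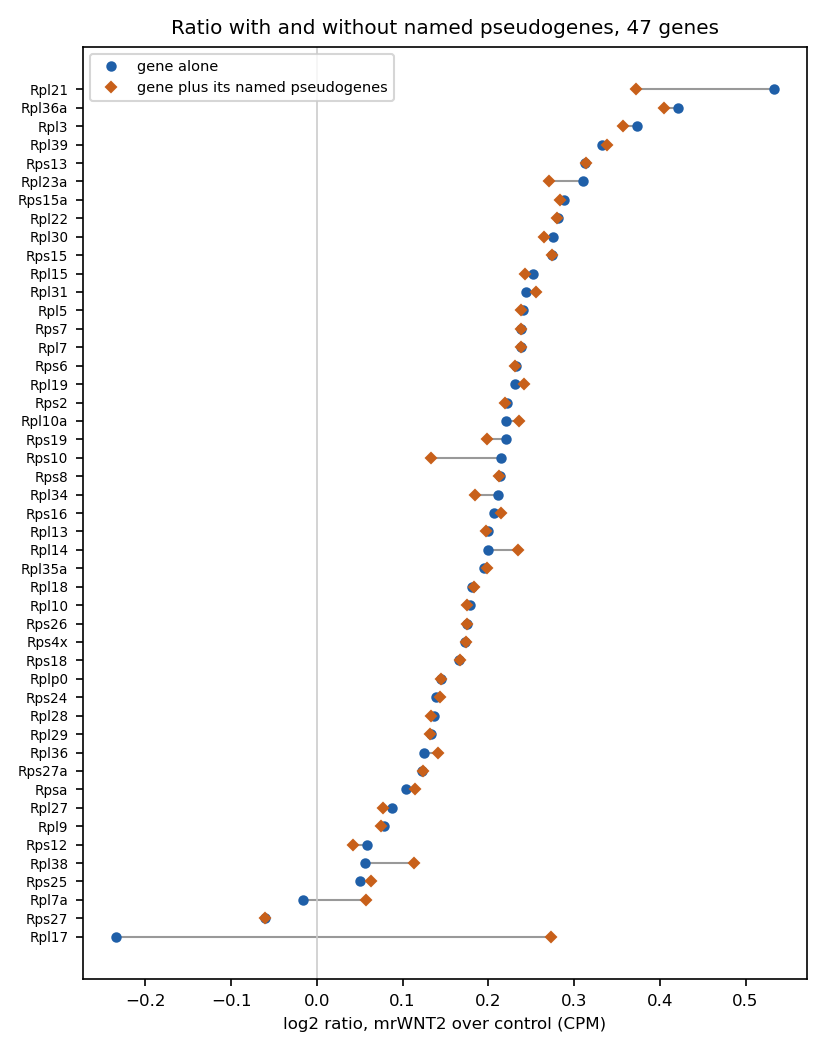
Log2 ratio of mrWNT2 over control for 47 of the 48 ribosomal protein genes that have a named pseudogene with counts, from the gene alone (circles) and from the gene plus those pseudogenes (diamonds), joined by a line. Most pairs nearly coincide; Rpl17 moves from -0.23 to 0.27 and Rpl21 from 0.53 to 0.37.

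Apart from the paralogs Rpl3l, Rpl39l and Rpl10l, low counts were also found for 4 genes whose proteins are part of the standard ribosome or, for Rpl36al, near-identical to one that is. Rps10 had 29 counts in control and 32 in mrWNT2, Rpl13a 194 and 215, Rpl24 3 and 4, and Rpl36al 11 and 4. In each, over 50% of the principal transcript lies in exons of a second gene annotated on the same strand, and that second gene had 0 counts in both libraries. The share was 91.6% for Rps10 (with RPS10-NUDT3), 71.5% for Rpl24 (Gm28037), 63.1% for Rpl36al (Gm49383) and 59.3% for Rpl13a (Gm45713). In the other 80 genes it was 10.9% or less. The part of this overlap in the low counts was not tested. The named pseudogenes of Rps10, among them Rps10-ps2 with 749 and 802 counts, held 885 counts in control and 921 in mrWNT2, far more than Rps10 itself.

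Levels were compared between genes only per length, as the deposited FPKM (fragments scaled to gene length and to an adjusted library size). Its ratios between the libraries equal those with DESeq2 size factors. Rplp1 was highest, at 786 FPKM in control and 976 in mrWNT2. Then came Rps3a1 (531 and 575), Rplp0 (509 and 549), Rpl4 (377 and 414) and Rps29 (376 and 400). The lowest measured genes were Rps10 (0.949 and 1.08), Rpl3l (1.84 and 1.14), Rpl13a (6.94 and 7.90), Rpl22l1 (8.63 and 11.6) and Rpl21 (9.52 and 13.5). The median was 115 FPKM in control and 121 in mrWNT2, and the order was nearly the same in both libraries (Spearman's rho 0.99 over 80 genes). Of 79 pairs of neighbours in the order, 63 in control and 62 in mrWNT2 had overlapping counting intervals, so single ranks are not resolved.

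The length used for FPKM joins all exons of a gene and weighs on this order. For Rps24 it was 6256 bases, where the principal transcript has 468, and Rps24 was at rank 61 by FPKM but at rank 1 by CPM per kilobase of that transcript (889 in control, 980 in mrWNT2). Rps15a, with 6270 against 640 bases, went from rank 75 to rank 40. Rplp1, at the same length by both, was at rank 1 and rank 2. Over 78 genes, Spearman's rho between FPKM and the ratio of the 2 lengths was -0.54, where the length enters both measures.

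**Figure D4:**
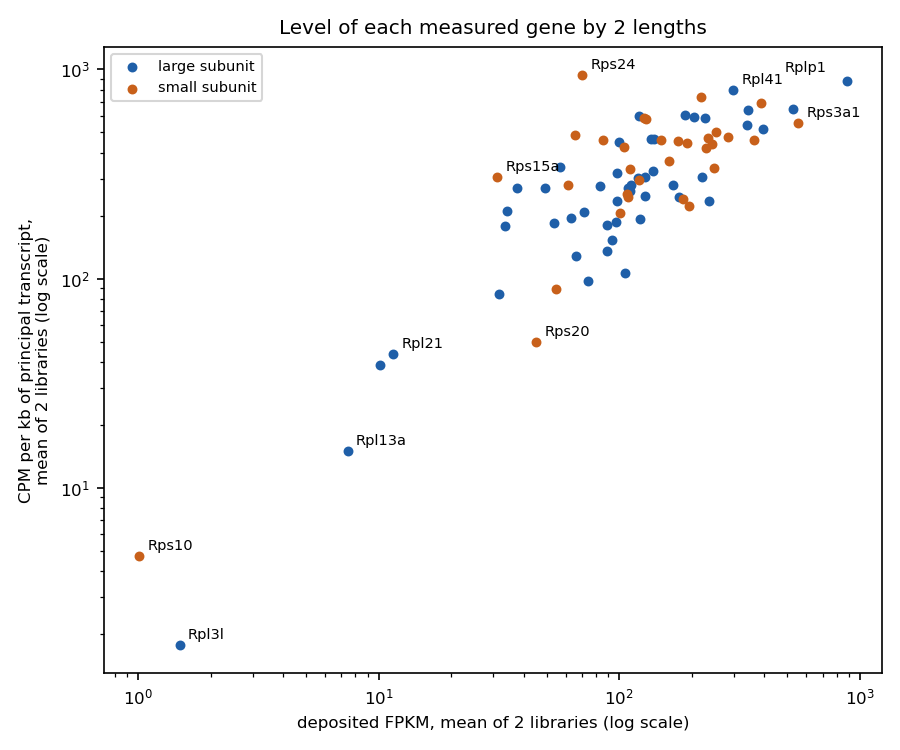
Level of each of the 80 measured genes as deposited FPKM (horizontal, log scale) and as CPM per kilobase of the principal transcript (vertical, log scale), each the mean of the 2 libraries, coloured by subunit. Rps24 and Rps15a stand above the main diagonal cloud, with joined lengths of 6256 and 6270 bases, and Rps10, Rpl3l and Rpl13a are at the low end of both scales.

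Summed FPKM of the large subunit was 1.28 times that of the small subunit in control and 1.32 times in mrWNT2. Per kilobase of principal transcript the ratios were 1.14 and 1.18. By either length the ratio was a little larger in mrWNT2. The median gene was the other way round, at 99.5 FPKM for the large and 135 FPKM for the small subunit in control and at 111 and 144 FPKM in mrWNT2.

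Other genes of the translation machinery were read from lists. The symbol rule leaves out some proteins of the ribosome, among them Rack1 and Fau. Rack1, a scaffold on the small subunit head, was at 443 CPM in control and 529 CPM in mrWNT2 (log2 0.26). Fau, whose product includes a small subunit protein, was at 282 and 299 CPM (log2 0.08).

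Elongation factors and other genes with TOP messengers had a median log2 ratio of 0.25, and 12 of 14 were at least 1.1-fold higher. They ranged from Pabpc1, the poly(A)-binding protein (log2 -0.05), to Nap1l1, a histone chaperone (0.36). Initiation factors had a median of 0.13 with 12 of 28 at least 1.1-fold higher and none 1.1-fold lower, from Eif1 (-0.08) to Eif2s1 (0.34). Ribosome assembly genes also had a median of 0.13, with 19 of 40 higher and 3 lower, from Gar1 (-0.30), of the pseudouridylation particles, to Utp14a (0.46), of the small subunit processome. Ribosomal proteins of mitochondria had a median of 0.18 over 77 measured genes, 45 higher and 7 lower, from Mrpl33 (-0.32) to Mrpl52 (1.19) among those with at least 10 CPM.

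RNA polymerase I makes ribosomal RNA, and its list also holds factors that act with it, such as Ubtf and Tbp. The list had a median of 0.01 over 12 genes, 5 higher and 1 lower, from Polr1a (-0.35) to Polr1e (0.40). That median was below 0 with DESeq2 size factors (-0.02) and with upper-quartile factors (-0.04). Growth signalling genes, among them Myc and the mTOR kinase complexes, had a median of -0.04 over 19 measured genes, 4 higher and 6 lower, from Mlst8 (-0.73), a subunit of both mTOR complexes, to Cdkn1a (0.36), the p21 inhibitor. Myc had a log2 ratio of -0.10, Rps6kb1, a kinase of ribosomal protein S6, 0.26, and Larp1, which binds TOP messengers, 0.19. The list's other Rps6k genes had log2 ratios of -0.16 (Rps6kb2), -0.11 (Rps6ka1) and -0.03 (Rps6ka3). The background share for all of these counts is 33.5% higher and 29.6% lower.

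**Figure D5:**
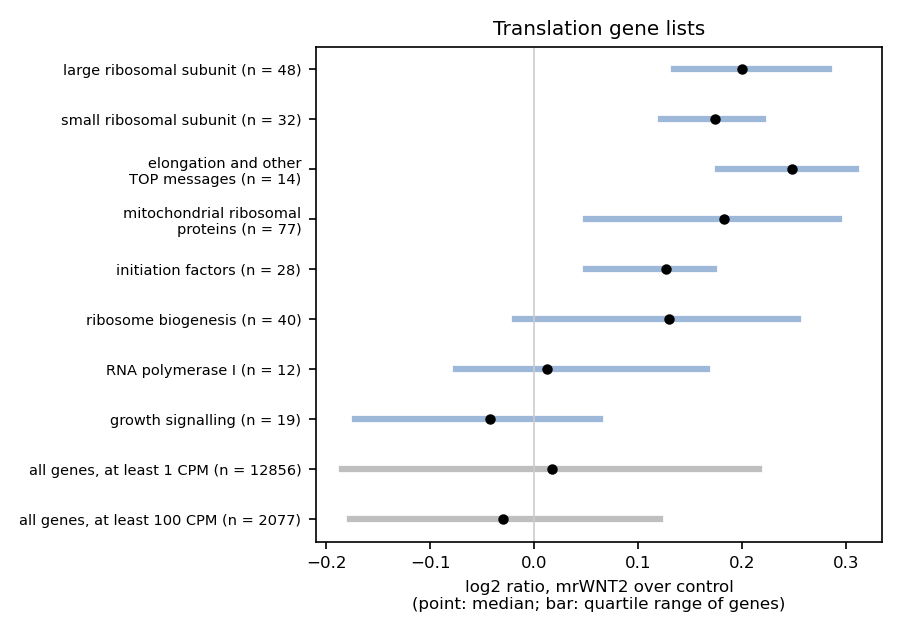
Median log2 ratio of mrWNT2 over control (points) and the range between the quartiles of the measured genes (bars) for the 2 ribosomal subunits, for 6 lists of related genes and for all genes at 2 minimum levels. The bars of the subunits (medians 0.20 and 0.17), the elongation and TOP list (0.25), mitochondrial ribosomal proteins (0.18) and initiation factors (0.13) lie wholly above 0, while those of ribosome biogenesis, RNA polymerase I, growth signalling and all genes span 0.

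MDSC, macrophage and neutrophil granule markers were mostly lower in mrWNT2. All 8 MDSC markers were measured, with a median of -0.16 and sums of 45520 (control) and 38387 CPM (mrWNT2). Of 10 macrophage markers, 9 passed the minimum and 8 had levels at least 1.5-fold lower in mrWNT2 (7.02% of all genes), the exception being Adgre1 at 325 and 584 CPM. Their sum was 2651 and 1438 CPM, and Timd4 had 0 counts in both. Neutrophil granule genes summed to 50637 and 42531 CPM. Progenitor markers summed to 82.7 and 64.8 CPM, with Kit at 36.0 and 16.7 CPM and Gata2 at 32.9 and 35.2 CPM. The sums were 22.7 and 22.0 CPM for T and NK cells (Ncr1 with 0 counts in both), 4.64 and 4.25 CPM for B cells (Pax5 with 0), and 2.54 and 2.44 CPM for erythroid cells (Hbb-bs with 0). Of the 8 T and NK markers only 1 was measured, and it alone held 20.2 and 20.7 CPM. Stroma and endothelium markers summed to 66.2 and 58.3 CPM, with members on both sides. Pecam1, listed for endothelium but not particular to it, was at 41.6 and 47.9 CPM, most of both sums. Col1a1, a collagen, was at 12.7 and 4.88 CPM, and the median log2 ratio of the 6 measured markers was -0.80. The granule and MDSC messengers are a far larger part of each library than the ribosomal protein messengers, and the part of these differences in the ribosomal protein ratios was not tested.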

How the data were processed

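The 84 genes and the lists were chosen with earlier results of these data known. The authors deposited raw counts per gene and FPKM, 1 column per library. The submitters' processing notes name the GRCm38 build, featureCounts 1.5.0-p3, HISAT2 2.0.5 and DESeq2 1.20.0. The sources used here do not give whether counting used strand or multiply mapped reads. Over 10078 genes with more than 50 counts, the deposited FPKM ratio and the count ratio differed by a constant log2 offset of 0.04. Counts were scaled with TMM (edgeR 4.0.16, R 4.3.3; factors 0.992 and 1.01). Ratios carry no pseudocount and have exact 95% Clopper-Pearson intervals; these cover counting error only, and reads without molecular identifiers may include amplified copies. Principal transcripts and shared 50-base windows came from GENCODE M21 and start sites from RefSeq. The interval script was tested on simulated data.

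The text names the 6 highest and 6 lowest ratios with at least 10 CPM, the 5 highest and 5 lowest FPKM, the stalk, 5S, peptidyl transferase and paralog lists, genes not measured, and each list's extremes with at least 10 CPM; others were picked as examples after their values were seen. Alternatives covered scaling, minimum level, pseudocount, FPKM, pseudogenes and the genes included. Some genes under this rule are not reported here. Protein properties were planned and not analysed here.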

Additional observations from a re-analysis of the deposited data

How the results depend on the processing

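The median log2 ratio of the family stayed between 0.14 and 0.22 over 14 alternatives, that of the large subunit between 0.15 and 0.22, of the small subunit between 0.12 and 0.20, and their difference between 0.02 and 0.05; 3 of the 14 were added after the data were seen. Scaling factors and FPKM shift every gene alike and cannot change that difference, and the FPKM ratios repeat those with DESeq2 size factors. Other scalings moved the median of all genes from 0.02 to between -0.04 and 0.04. Such shifts also move the share of all genes at least 1.1-fold higher, which was computed for TMM only (33.5%). The family's count of genes at least 1.1-fold higher was 65 with total counts and 41 with upper-quartile factors. It was 22 without the 48 genes that have a named pseudogene with counts. It was 23 without those sharing over 50% of their windows, 50 of the 84 genes. Far fewer genes were counted in these 2 cases, and the family's median log2 ratio was 0.17 and 0.18. The count at least 1.1-fold lower was 1 in each of those 2 cases, and also at 10 CPM, without the paralogs and with named pseudogenes added. The count at least 1.5-fold higher was 1 with no minimum. The count at least 1.5-fold lower was 2 with no minimum and with all annotated copies added, and 0 at 10 CPM, with 1 CPM added and without the paralogs. The share of counts in control and mrWNT2 was 1.99% and 2.31% with named pseudogenes, 2.07% and 2.40% with all annotated copies, 1.91% and 2.21% without paralogs, and 0.796% and 0.922% without genes that have a named pseudogene. The large to small ratio of summed FPKM was 1.52 and 1.60 without those genes, and 1.14 and 1.18 by principal transcript length. No paired analysis was possible because each group has 1 library, and no replicate could be left out. Counts were too few for a narrow interval in Rps10, Rpl3l and the 4 genes that were not measured; the cause of the low counts was not tested.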

Other observations

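Copies of ribosomal protein genes were also found by sequence in the reference annotation. In all, 391 annotated pseudogenes shared at least 100 windows of 50 bases with one of the 84 genes. Many of the named pseudogenes are among them, so their counts overlap those given for named pseudogenes in the results. The 391 held 19625 counts in control and 22052 in mrWNT2, which equals 7.56% and 7.85% of the counts of the ribosomal protein genes themselves, and their summed log2 ratio was 0.24. Gm9794, a copy of Rpl23, held the most counts of the 391, with 1595 in control and 1799 in mrWNT2. Rpl14-ps1 held the most among the named pseudogenes of Rpl14, Rpl21, Rpl7a and Rps10, with 1037 in control and 1212 in mrWNT2. Rpl14 itself had 1927 and 2104.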
